A study of Mus musculus with 10 samples.

Results

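The genes followed here encode carriers of the cell surface and of inner membranes that move glucose, lactate and other monocarboxylates, and amino acids. Members were the genes with a symbol in the solute carrier families Slc1, Slc2, Slc3, Slc6, Slc7, Slc16, Slc36, Slc38 or Slc43 and at least 1 transcript marked protein_coding in the deposited names. The rule used no measured value and found 88 of the 45706 genes. One member, Slc7a6os, carries the name of its neighbour Slc7a6 and is not itself a transporter.

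The study followed mouse embryonic fibroblasts (MEF) on the way to induced pluripotency, a route that runs through intermediates whose gene activity was read by RNA sequencing. Per the labels, the MEF and the induced cells shared the strain C57BL/6 x 129 and the genotype OKSM Col1a1/M2rtTA ROSA26: a cassette of Oct4, Klf4, Sox2 and Myc sits in the Col1a1 locus, and the reverse transactivator that drives it under doxycycline sits in the Rosa26 locus. MEF were grown in fibroblast medium with no doxycycline and were not sorted. Cells at day 3, day 6 and day 9 were grown in embryonic stem cell (ESC) medium with doxycycline at 1 µg/ml and ascorbic acid at 50 µg/ml. Day 3 cells were unsorted, and day 6 and day 9 cells were sorted as SSEA+, a surface mark of cells advancing on this route. The reference ESC were V6.5, a single line of C57BL/6 x 129 background, grown unsorted on irradiated feeder cells in ESC medium. That medium held serum, LIF, GlutaMAX, non-essential amino acids and β-mercaptoethanol, per the labels. Each of the 5 groups had 2 libraries, described by the submitters as biological replicates, and all carry a single batch label; the p-values below measure only the spread between these libraries. The change of medium, doxycycline and ascorbic acid all came between MEF and day 3, and the sort came between day 3 and day 6, so stage and these conditions cannot be told apart. The ESC line is a different genotype from the induced cells. Sex-linked genes, given below, also separate MEF and ESC from the induced cells, and that difference cannot be told apart from stage either.

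Glucose enters cells down its gradient through the Slc2 (GLUT) proteins. The lactate made from it leaves with a proton through some of the Slc16 (MCT) proteins. Among these are MCT1 and MCT4, which need a chaperone such as basigin to reach the membrane. Large neutral amino acids enter through obligatory exchangers in which an Slc7 light chain is held by the heavy chain Slc3a2 (CD98hc), and the same heavy chain partners Slc7a11 to make the cystine-glutamate exchanger xCT, which supplies cysteine for glutathione. Cationic amino acids use the single-chain Slc7 proteins, glutamine and small neutral amino acids use Slc1a5 and the Slc38 proteins, and the Slc6 proteins drive taurine, creatine, glycine and other substrates with sodium and chloride.

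Levels of a gene across libraries are given as CPM, read counts relative to the size of the library and scaled for its composition, and levels of different genes are compared only as TPM, which also divides by transcript length. Gene positions are those of GENCODE M21 on mm10 (GRCm38). Total estimated reads were 29585876 to 38275024 per library. A gene was called higher or lower between groups at a Benjamini-Hochberg adjusted p under 0.05 in edgeR's quasi-likelihood test over all tested genes and a fold change of at least 2, which is 1 on the log2 scale. Of the 88 members, 72 passed the filter on low counts and were among the 20165 genes tested. The 16 that did not pass were at or below 0.381 CPM in the mean of every group; 9 of them belong to Slc6 and 3 to Slc7. A group mean of at least 10 CPM in some group was reached by 43 members, and of at least 100 CPM by 18.

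The labelled cell types were checked against their markers. The 10 fibroblast genes, among them Col1a1 and Postn, summed to 53275 and 51722 CPM in the MEF libraries, 4218 and 4237 CPM at day 3, 248 and 235 CPM at day 6, 104 and 111 CPM at day 9, and 4747 and 4897 CPM in ESC. The 8 pluripotency genes summed to 5.36 and 5.09 CPM in MEF, 240.2 and 260.5 at day 3, 637 and 604 at day 6, 751 and 763 at day 9, and 4337 and 4459.8 in ESC. Pou5f1, the gene of Oct4, which the cassette carries, averaged 233 CPM at day 3 and 309.8 at day 6. Reads of the cassette and of the gene itself were not told apart. At day 6 Tdh averaged 213 CPM, Nanog 25.8 and Esrrb 16.8, and at day 3 Nanog was at 1.97 and Esrrb at 0.155. The ESC libraries thus carried fibroblast transcripts, at 1.11% to 14% of the MEF level per gene with a median of 9.09%, beside the feeder cells named in the labels. Markers of other cell types moved as well, and their part in the results was not tested. The 5 epithelial genes, among them Cdh1 and Epcam, summed to 14.9 and 17.4 CPM in MEF, 17.4 and 15.7 at day 3, 242 and 248 at day 6, 1167 and 1215 at day 9 and 570.3 and 572 in ESC. The 4 keratinocyte genes summed to 12.1 and 11.8 CPM in MEF, 2.83 and 3.4 at day 3, 73.3 and 73.4 at day 9 and 42.2 and 47.1 in ESC. Most of the ESC sum was Sfn, at a mean of 43.3 CPM, with Krt14 at 1.02, Krt5 at 0.303 and Krt6a at 0.0134. The 4 endothelial genes summed to 3.03 and 2.9 CPM in MEF, 131 and 128 at day 3, 74.1 and 74.9 at day 9 and 106 and 111 in ESC. These sums lay mostly on a single gene: at day 3 Tek averaged 121 CPM, Cdh5 7.54, Pecam1 0.925 and Tie1 0.0578. In ESC Pecam1 averaged 99 CPM, Tek 7.29, Tie1 2.48 and Cdh5 0.1, so the list did not move as a set. Sex-linked genes also differed between groups: Xist was at 0.739 and 0.793 CPM in MEF, 929.6 to 1317 CPM in the 6 induced libraries and 11.3 and 9 CPM in ESC, and Ddx3y was at 90.6 and 86.4 CPM in MEF, at or below 0.176 CPM in the induced libraries and 26.1 and 26.8 CPM in ESC. The sequenced MEF thus do not share the sex-linked pattern of the induced cells, and neither do the ESC. In each comparison of induced cells with MEF or ESC, this difference cannot be told apart from stage. Because these are bulk samples, fewer cells of a type and less RNA per cell cannot be told apart for any gene below.

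Between MEF and day 3 more transporter genes fell than rose in the edgeR test with the filter given above. There 12 members rose and 25 fell, 51.4% of the 72 tested, against 29.1% of all tested genes. Falls made up 34.7% of the tested members and 14.5% of all tested genes, and rises 16.7% and 14.6%. The median log2 change was -0.68 over the tested members and 0.08 over all tested genes. Several of the falls, some of them in Slc16, were of genes at low level, such as Slc7a8 at 1.31 CPM in MEF and 0.456 CPM at day 3. Every member that rose averaged at least 8.1 CPM at day 3. Some of the falls thus lay on genes at low level. The stricter filter on low counts, given near the end, left fewer falls, but it also tests fewer genes. That count alone therefore cannot show where the excess of falls lay, or whether falls still outnumbered rises. From day 3 to day 6, 15 members rose and 9 fell, 33.3% against 19.5% of all tested genes (9.26% up and 10.2% down), and from day 6 to day 9, 7 rose and 2 fell, 12.5% against 7.87% (5.18% up and 2.68% down). Between day 9 and ESC 20 members were higher and 14 lower in ESC, 47.2% against 32.9% (18.6% and 14.3%), and between MEF and ESC 21 were higher and 21 lower in ESC, 58.3% against 46.1% (25.5% and 20.6%). In the day 3 step the Slc16 family changed most widely, with 4 members up and 9 down of 14 tested, and the Slc38 family least among the larger families, with 1 down of 11. Without composition scaling, that is with library size alone, the median of all genes moved up by 0.21 for day 3 with MEF and by 0.34 for ESC with MEF.

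**Figure D1:**
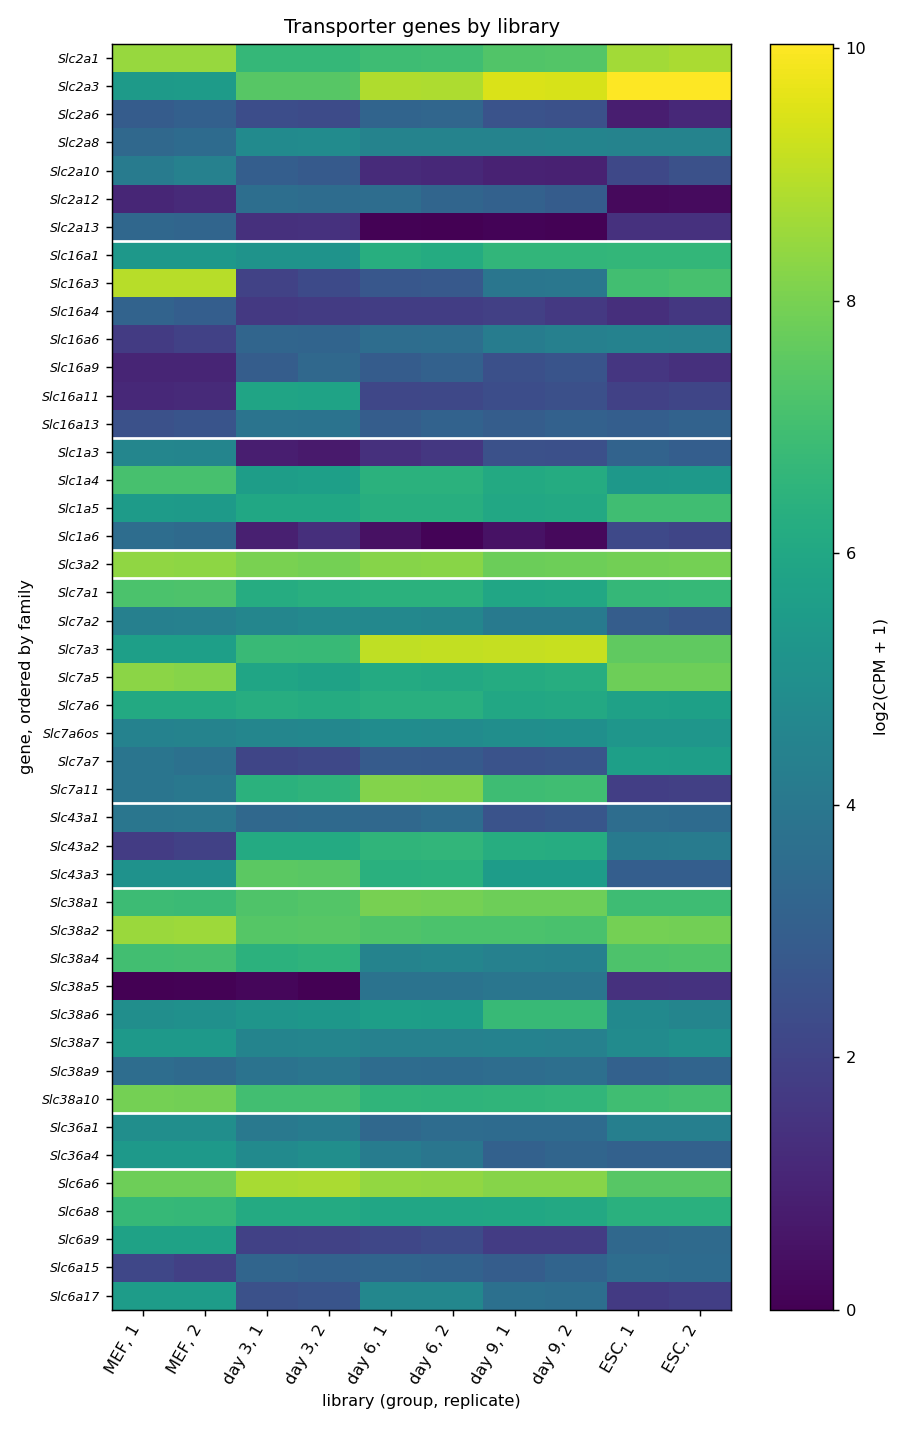
Level of 45 tested members that reached 5 CPM in a group, as log2(CPM + 1) by colour, with genes in rows by family and the 10 libraries in columns. Replicate columns look alike, and Slc2a3 and Slc7a3 brighten from MEF to day 9 while Slc16a3 and Slc7a5 darken at day 3.

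The main glucose transporters changed places between MEF and day 3. Slc2a1 (GLUT1; chr4:119108711-119137983, plus strand), the basal glucose carrier of most cells, was at 358 and 362 CPM in MEF, 102 and 103 at day 3, 119.6 and 123 at day 6, 158 and 163 at day 9, and 402 and 431 in ESC. Its libraries form a trough: the 6 induced libraries all lie below the 4 of MEF and ESC, and no group overlaps its neighbour. The fall at day 3 was -1.82 ± 0.04 (log2, SE; edgeR adjusted p = 2.3e-14) and the rise from day 9 to ESC was 1.38 ± 0.04 (edgeR adjusted p = 3.2e-13). In every library 69.2% to 74.5% of its reads were assigned to Slc2a1-004, a transcript annotated as subject to nonsense-mediated decay.

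Slc2a3 (GLUT3; chr6:122727809-122801640, minus strand), a high-affinity glucose carrier known from neurons and early embryos, was higher in each group than in the one before. It was at 43.4 and 43.9 CPM in MEF, 169 and 169 at day 3, 457 and 449 at day 6, 697 and 681 at day 9, and 1048 and 1046 in ESC. The pairs of libraries are tight and stand in the order of the series with no overlap. The first of these steps passed the 2-fold threshold, at 1.96 ± 0.03 (log2, SE; edgeR adjusted p = 2.5e-15), as did day 6 with day 3, at 1.42 ± 0.03 (edgeR adjusted p = 4.6e-14), whereas the later steps were under 2-fold. From MEF to ESC the rise was 24-fold in CPM.

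Per transcript length, Slc2a3 stood at 0.229 and 0.215 of the Slc2a1 level in the MEF libraries, 2.41 and 2.72 times it at day 3, 6.9 and 6.56 times at day 6, 8.01 and 7.1 times at day 9 and 4.64 and 4.36 times in ESC. Of all TPM of the 12 Slc2 genes, Slc2a1 held 69.8% and 70% in MEF, 10.5% and 11.6% at day 9 and 17.2% and 17.9% in ESC. Slc2a3 held 16% and 15.1% in MEF, 84.4% and 82.6% at day 9 and 79.6% and 78% in ESC. The summed TPM of the family was 108 ± 1.72 (SD, n = 2) in MEF and 101 ± 13.6 at day 3, a gap smaller than the SD of the day 3 libraries. The sum was 219 ± 2.91 at day 6, 289 ± 15.9 at day 9 and 531 ± 1.05 in ESC.

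**Figure D2:**
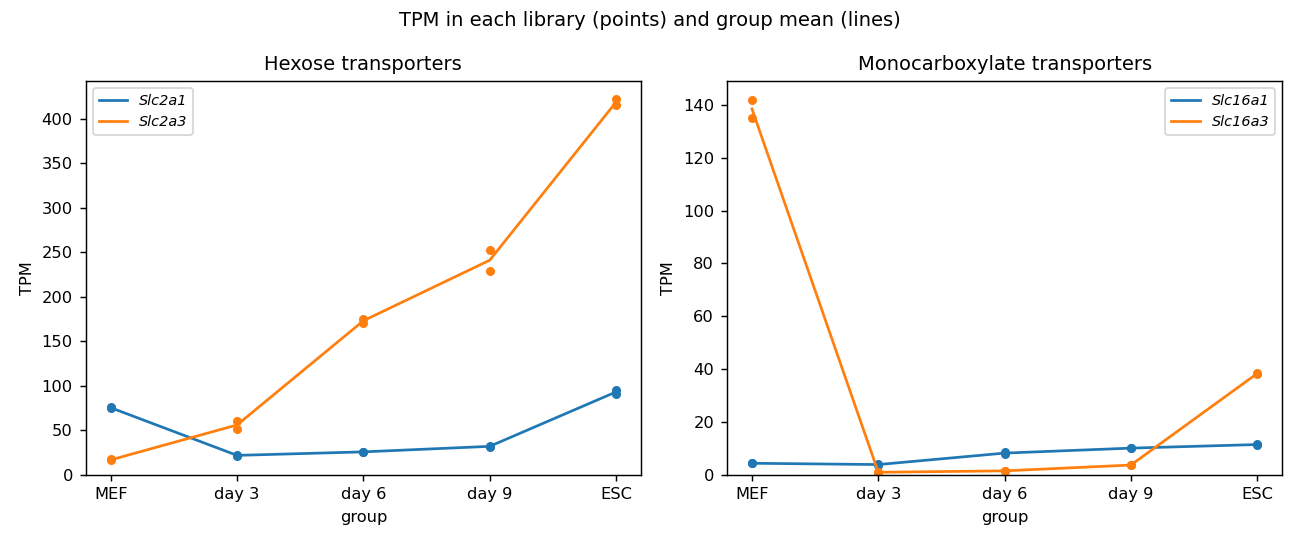
TPM of the main hexose transporters (left) and monocarboxylate transporters (right) in each group; points are libraries and lines join group means. Slc2a1 and Slc2a3 cross between MEF and day 3, and Slc16a3 falls from 138 TPM in MEF to 0.956 TPM at day 3.

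The other Slc2 genes were lower in level and moved in several directions. Slc2a8, an intracellular hexose carrier, rose at day 3 from 9.42 and 10.5 CPM to 26.8 and 27.8 CPM and was at 21.7 and 21.5 CPM in ESC. Slc2a12 was transient: 1.11 and 1.31 CPM in MEF, 11.5 and 10.8 at day 3, 11.1 and 8.65 at day 6, 7.78 and 6.54 at day 9, and 0.206 and 0.24 in ESC. All 6 induced libraries of Slc2a12 lie above all 4 libraries of MEF and ESC, by 3.20 ± 0.18 at day 3 with MEF (log2, SE; edgeR adjusted p = 1.0e-09). Slc2a10 ran the other way, with 17 and 20.5 CPM in MEF, 0.932 and 0.884 at day 9 and 3.56 and 4.65 in ESC. Slc2a13, a proton-coupled myo-inositol carrier, fell from 9.27 and 8.63 CPM in MEF to at or below 0.0643 CPM in the day 6 and day 9 libraries and was at 1.71 CPM in both ESC libraries. In ESC, Slc2a10 and Slc2a13 stood at 21.9% and 19.1% of their MEF levels, above the highest fibroblast marker at 14%. Slc2a6, a lysosomal member, stood at 14.2% of its MEF level in ESC. For Slc2a10, Slc2a13 and Slc2a6 alike, the share of the ESC level that comes from feeder cells was not tested.

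Among the lactate carriers, Slc16a3 had the largest fall of any tested member at day 3. Slc16a3 (MCT4; chr11:120948480-120960868, plus strand), the lactate exporter of strongly glycolytic cells, was at 496 and 502 CPM in MEF, 2.99 and 3.78 at day 3, 5.67 and 5.93 at day 6, 14.5 and 14.8 at day 9, and 126 and 136 in ESC. The MEF libraries stand far above all others, the day 3 libraries are lowest, and no group overlaps another. The fall at day 3 was 148-fold in CPM, or -7.21 ± 0.07 (log2, SE; edgeR adjusted p = 6.4e-18). The level rose from day 6 to day 9 by 1.34 ± 0.09 (edgeR adjusted p = 3.2e-08) and from day 9 to ESC by 3.16 ± 0.06 (edgeR adjusted p = 3.4e-15). ESC stayed 3.8-fold below MEF, at 26.3% of the MEF level, above the range of the fibroblast markers in the same libraries. How much of this ESC level comes from feeder cells was not tested.

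Slc16a1 (MCT1; chr3:104638668-104658462, plus strand), which carries lactate and pyruvate in both directions, was at 39.5 and 40.2 CPM in MEF and 34.4 and 34.9 at day 3. It reached 77.5 and 70.6 CPM at day 6, 97.1 and 96.2 at day 9, and 100.2 and 97.7 in ESC. The libraries thus fall into a low pair of stages, MEF and day 3, and a high set from day 6 on; the step from day 3 to day 6 was 1.10 ± 0.05 (log2, SE; edgeR adjusted p = 1.2e-10). Per length, Slc16a1 stood at 0.0308 and 0.0324 of Slc16a3 in MEF, at 4.89 and 3.49 times it at day 3, at 2.77 and 2.7 times at day 9, and at 0.307 and 0.29 of it in ESC. Slc16a3 held 89.8% and 91.2% of the Slc16 TPM in MEF, 1.42% and 2.02% at day 3, 15.2% and 12.8% at day 9 and 63.4% and 62.8% in ESC. Summed Slc16 TPM was 153 ± 7.34 (SD, n = 2) in MEF, 55.3 ± 1.55 at day 3 and 22.2 ± 0.74 at day 6. It was 26.5 ± 3.39 at day 9 and 60.8 ± 0.966 in ESC.

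At day 3 most of the Slc16 sum came from another gene. Slc16a11 (chr11:70212752-70216417, plus strand), a member studied in liver fat metabolism, was at 1.22 and 1.31 CPM in MEF, 57.2 and 55.8 at day 3, 3.35 and 3.54 at day 6, 4.21 and 4.5 at day 9, and 2.83 and 3.26 in ESC. The day 3 libraries stand far above all others. The rise was 5.47 ± 0.10 (log2, SE; edgeR adjusted p = 3.6e-15), the largest of any tested member in that step, and the fall by day 6 was -4.03 ± 0.08 (edgeR adjusted p = 3.5e-14). Per length it stood at 40.4 and 39.5 TPM at day 3, below only 4 other members there. Its neighbour Slc16a13 ends 371 bases away on the opposite strand of the same chromosome and moved from 4.62 and 5.03 CPM in MEF to 13.6 and 13 CPM at day 3; how reads were divided between the pair was not tested. Slc16a6 rose from 2.33 and 2.8 CPM in MEF to 8.78 and 8.48 at day 3 and 20.6 and 20.5 in ESC.

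Slc2a1 and Slc16a3, which fell together at day 3 and rose together in ESC, are shown with their upstream sequence because both are textbook targets of hypoxia-inducible factor. The sequences are RefSeq's on GRCm38.p6, from 250 to 10 bases before the annotated start, written 5′ to 3′ on the gene's strand, with matches to ACGTG, the core of the hypoxia response element, in capitals.
Slc2a1: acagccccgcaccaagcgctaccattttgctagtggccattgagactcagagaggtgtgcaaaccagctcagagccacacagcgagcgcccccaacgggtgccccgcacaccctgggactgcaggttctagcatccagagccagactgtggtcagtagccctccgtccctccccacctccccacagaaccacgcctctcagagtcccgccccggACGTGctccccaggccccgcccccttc
Slc16a3: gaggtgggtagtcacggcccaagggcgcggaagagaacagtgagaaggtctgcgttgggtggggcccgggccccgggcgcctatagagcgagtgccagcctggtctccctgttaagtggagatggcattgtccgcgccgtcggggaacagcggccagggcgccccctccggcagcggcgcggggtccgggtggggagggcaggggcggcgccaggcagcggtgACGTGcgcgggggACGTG
The Slc2a1 stretch is chr4:119108495-119108735 (plus strand) and holds 1 match, 36 bases before the start. The Slc16a3 stretch is chr11:120948817-120949057 (plus strand) and holds 2 matches, 27 and 14 bases before the start; it lies inside the longer GENCODE M21 gene model of Slc16a3, which begins at 120948480. Searched on both strands in the 250 bases before the start, ACGTG occurred in 20 of 84 windows of member genes, or 23.8%, and in 16.6% of all 32851 windows. At least 2 matches, counting a palindromic CACGTG as 2, occurred in 6.81% of all windows. RefSeq gave a window for 63 of the 88 members. A match is a description of these letters and not a measured binding site.

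The amino acid exchangers built on CD98 changed through their light chains. The heavy chain Slc3a2 (chr19:8706882-8723369, minus strand) was at 333 and 318 CPM in MEF, 256 and 241 at day 3, 294 and 306 at day 6, 221 and 226 at day 9, and 239 and 245 in ESC. It stayed under 2-fold in all 5 comparisons. The other heavy chain, Slc3a1, which serves kidney and gut, did not exceed 0.369 CPM in any library and was not tested. Slc7a5 (LAT1; chr8:121881150-121907694, minus strand), the main carrier of leucine and other large neutral amino acids, was at 313 and 299 CPM in MEF, 58.4 and 54.4 at day 3, 68.8 and 66 at day 6, 70.4 and 74.8 at day 9, and 225 and 227 in ESC. It has the trough shape of Slc2a1, with the 6 induced libraries below the 4 of MEF and ESC. It changed by -2.44 ± 0.04 at day 3 (log2, SE; edgeR adjusted p = 3.8e-15) and rose by 1.64 ± 0.04 from day 9 to ESC (edgeR adjusted p = 2.1e-13).

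Slc7a11 (xCT; chr3:49892526-50443614, minus strand) ran opposite to Slc7a5. Its level was at 14 and 15.4 CPM in MEF, 83 and 91.2 at day 3, 288 and 277 at day 6, 119 and 122 at day 9, and 2.65 and 2.78 in ESC. The induced libraries are all above those of MEF and ESC, day 6 is highest, and ESC is lowest. The steps were 2.56 ± 0.06 at day 3, 1.70 ± 0.05 at day 6, -1.23 ± 0.04 at day 9 and -5.47 ± 0.08 for ESC with day 9 (log2, SE; edgeR adjusted p = 7.3e-14, 6.6e-13, 1.0e-10 and 3.7e-16). At day 6 the level was 104-fold above ESC and 19.2-fold above MEF in CPM.

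The remaining light chains moved less or in other ways. Slc7a6 (y+LAT2) was at 66.5 and 68.2 CPM in MEF and 52.1 and 50.7 in ESC and was under 2-fold in all 5 comparisons. Slc7a7 (y+LAT1), which exports cationic amino acids in epithelia and macrophages, was at 14.1 and 12.4 CPM in MEF, 3.31 and 3.55 at day 3, 4.95 and 5.3 at day 9 and 49.4 and 48.1 in ESC. ESC stands above every other library of that gene, by 3.24 ± 0.08 over day 9 (log2, SE; edgeR adjusted p = 1.1e-13). The 5 macrophage markers summed to 10.5 and 10.9 CPM in MEF, 23 and 21 at day 3, 4.5 and 6.08 at day 6, 7.52 and 8.31 at day 9 and 79.6 and 81.9 in ESC. Of these markers in ESC, Lyz2 averaged 50.1 CPM, Cd68 25.5 CPM, Csf1r 2.93 CPM, Adgre1 1.42 CPM and Ptprc 0.838 CPM. Their part in the Slc7a7 level was not tested. Slc7a8 (LAT2) was low throughout, at 1.37 and 1.25 CPM in MEF, at or below 0.126 CPM at day 6 and day 9, and 4.33 and 4.17 CPM in ESC.

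Per length, Slc7a5 held 90.6% and 90.9% of the TPM of the CD98-type light chains in MEF, 57.6% and 54.6% at day 3, 66.4% and 63.6% at day 9 and 75.8% and 74.9% in ESC. Slc7a11 held 0.577% and 0.469% in MEF, 11.5% and 14.6% at day 3, 28.1% and 20.2% at day 6 and 0.151% and 0.307% in ESC. Slc7a7 held 18.4% and 18.9% in ESC and 3.56% to 5.14% in all other libraries. The summed light chains stood at 2.63 and 3.16 times the Slc3a2 level in MEF, 0.749 and 0.766 of it at day 3, 1.04 and 1.17 times at day 6, 1.18 and 1.1 times at day 9, and 2.92 and 2.56 times in ESC. The day 3 libraries are thus the only ones in which light-chain TPM was below heavy-chain TPM. These shares and ratios depend on the TPM of Slc7a5. In MEF Slc7a5 and Slc3a2 averaged 306 and 326 CPM, but 168 and 63.9 TPM. How the assignment of Slc7a5 reads to its transcripts weighs in these values was not tested. The Slc7a5 value of 36.3 TPM at day 6 rests on unequal libraries of 29.8 and 42.7 TPM, while its CPM there were 68.8 and 66.

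**Figure D3:**
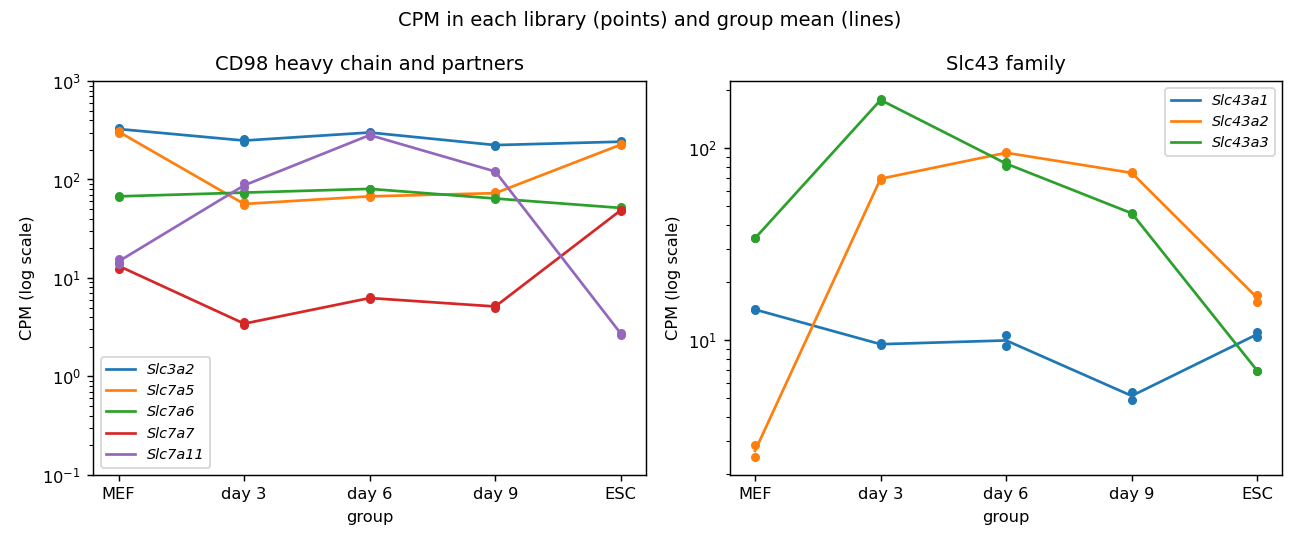
CPM on a log axis of the CD98 heavy chain Slc3a2 and its light chains (left) and of the Slc43 family (right); points are libraries and lines join group means. Slc7a11 peaks at day 6 where Slc7a5 is low, and Slc43a2 and Slc43a3 are raised in the induced groups.

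The upstream sequence of Slc7a11 is shown because it is a textbook target of the stress factor Atf4, whose other targets are described near the end of these results. It is RefSeq's on GRCm38.p6, chr3:50443623-50443863 (minus strand), 250 to 10 bases before the annotated start and 5′ to 3′ on the gene's strand, with matches to TGATGNAA, the C/EBP-ATF composite element, in capitals.
Slc7a11: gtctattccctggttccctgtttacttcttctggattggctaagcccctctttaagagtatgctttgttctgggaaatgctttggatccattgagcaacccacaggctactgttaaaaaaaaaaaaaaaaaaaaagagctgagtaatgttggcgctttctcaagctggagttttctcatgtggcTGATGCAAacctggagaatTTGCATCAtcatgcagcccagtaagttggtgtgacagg
There are 2 matches, 66 and 47 bases before the start, the second on the opposite strand. At least 2 matches occurred in 0.0396% of all 32851 windows. A match occurred in 3 of the 84 member windows, 3.57% against 3.45% of all windows, namely 1 of Slc7a11 and 2 overlapping ones of Slc7a7. Of the other motifs searched on both strands, TGACNNNGC, the antioxidant response element, was in 11.9% of member windows and 10.2% of all, and GGGNGTG, a Kruppel-like factor element, in 29.8% and 26.1%. Slc7a11 held no match to the antioxidant response element letters in this window.

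The Slc43 proteins carry large neutral amino acids without a heavy chain, except that Slc43a3 is known as a purine nucleobase carrier. Slc43a2 (LAT4; chr11:75531694-75577575, plus strand) was at 2.47 and 2.84 CPM in MEF, 68.5 and 70.1 at day 3, 93.8 and 95.4 at day 6, 74.7 and 74 at day 9, and 15.9 and 17.3 in ESC. All induced libraries are above ESC, and ESC is above MEF. The rise at day 3 was 25.9-fold, 4.69 ± 0.07 (log2, SE; edgeR adjusted p = 8.0e-16), and the fall from day 9 to ESC was -2.16 ± 0.05 (edgeR adjusted p = 6.6e-14). Per length, Slc43a2 stood at 0.00552 and 0.0121 of Slc7a5 in MEF, 0.634 and 0.855 at day 3, 0.841 and 0.55 at day 6, and 0.0644 and 0.0574 in ESC.

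Slc43a3 (chr2:84936579-84958509, plus strand) peaked earlier, with 34 and 33.9 CPM in MEF, 180.4 and 176 at day 3, 81 and 85.1 at day 6, 45.5 and 46.1 at day 9, and 6.92 and 6.94 in ESC. Day 3 is highest and each later group is lower than the one before, without overlap. The rise at day 3 was 2.39 ± 0.04 and the fall by day 6 -1.10 ± 0.04 (log2, SE; edgeR adjusted p = 2.3e-15 and 6.8e-12); with transcript lengths as an offset the latter was -0.86 and under the 2-fold threshold. Slc43a1 (LAT3) was at 14.3 and 14.6 CPM in MEF, 4.89 and 5.38 at day 9 and 11.1 and 10.4 in ESC, and its rise from day 9 to ESC, 1.06 ± 0.10 (edgeR adjusted p = 3.7e-07), was 0.99 and not called without day 9 replicate 1.

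Among the cationic amino acid carriers Slc7a3 changed most. Slc7a3 (CAT3; chrX:101079210-101086020, minus strand), an arginine and lysine carrier known from brain and early embryonic cells, was at 49.5 and 50 CPM in MEF, 109 and 108 at day 3, 537 and 559 at day 6, 576 and 577 at day 9, and 193 and 191 in ESC. The day 6 and day 9 libraries are highest, ESC lies between them and day 3, and MEF is lowest. The steps were 1.12 ± 0.04 at day 3, 2.34 ± 0.03 at day 6 and -1.59 ± 0.03 for ESC with day 9 (log2, SE; edgeR adjusted p = 2.0e-12, 9.2e-16 and 1.0e-14). The first of these was 1.00 in DESeq2 and missed the fold threshold there. Slc7a1 (CAT1), the widely expressed member, was at 146 and 148 CPM in MEF, 72.6 and 78.6 at day 3, 60 and 64.5 at day 9 and 102 and 105 in ESC, under 2-fold in all 5 comparisons. Slc7a2 (CAT2) was at 19.7 and 20.5 CPM in MEF, 16.3 and 16.7 at day 9 and 6.69 and 5.66 in ESC, a fall of -1.42 ± 0.09 from day 9 (edgeR adjusted p = 4.6e-09).

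Per length, Slc7a3 already had the largest share of the cationic carriers in MEF, with 72.4% and 70.8% of the TPM of Slc7a1 to Slc7a4 and Slc7a14. That order rests on length, since in reads Slc7a1 averaged 147 CPM in MEF and Slc7a3 49.7 CPM. In MEF 76.9% and 70% of the Slc7a3 reads were assigned to Slc7a3-201, 1 of its 7 transcripts, and the weight of the others in its TPM was not tested. Slc7a3 held 98.4% and 98.1% at day 9 and 92.9% in both ESC libraries. Its level stood at 3.17 and 2.9 times Slc7a1 in MEF, 54.8 and 55 times at day 6, 85.7 and 71.9 times at day 9 and 14.9 and 15.3 times in ESC. Slc7a3 lies on the X chromosome, as do Slc38a5, Slc6a8 and Slc6a14. Beside the sex-linked difference given above, the 746 tested genes of that chromosome had a median log2 change of 0.03 at day 3 with MEF and -0.09 for ESC with day 9, against 0.08 and 0.00 for all tested genes. At day 3 Slc7a3 rose and Slc6a8 stayed under 2-fold. The part of the sex-linked difference in the levels of these genes was not tested and cannot be told apart from stage.

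**Figure D4:**
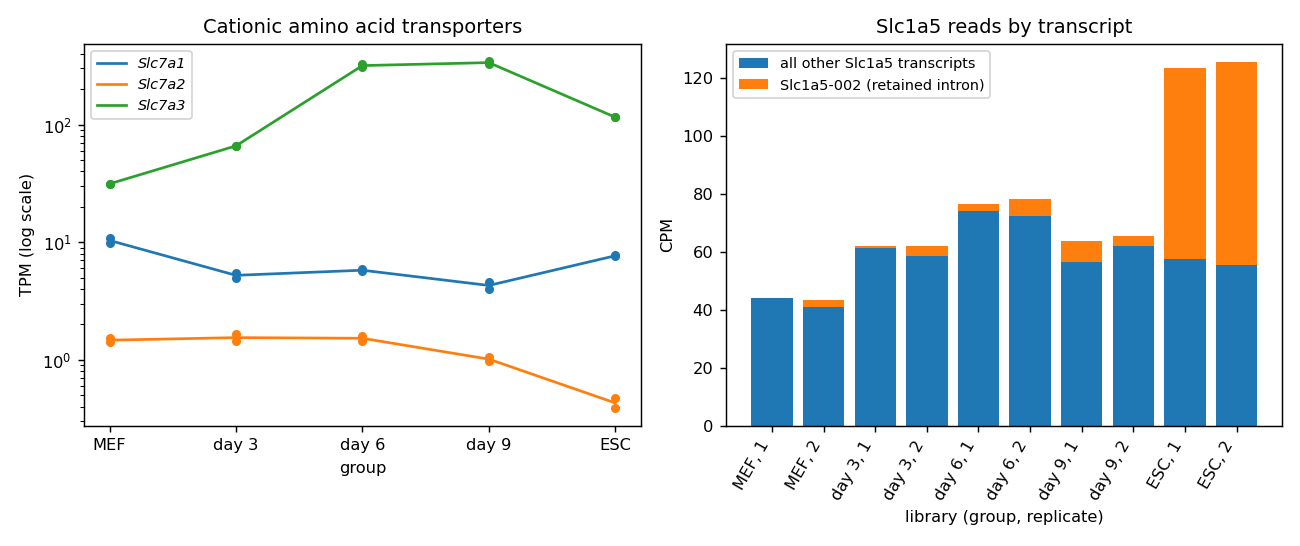
Left, TPM on a log axis of the cationic amino acid carriers, with points for libraries and lines joining group means; right, CPM of Slc1a5 in each library, split into the retained-intron transcript Slc1a5-002 and all other transcripts. Slc7a3 rises over 100 TPM from day 6 on, and Slc1a5-002 makes up 53.4% and 55.8% of the gene's reads in ESC.

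Of the glutamine carriers, Slc1a5 rose from MEF to ESC as a gene total, and part of that rise lay on a transcript annotated as a retained intron. Slc1a5 (ASCT2; chr7:16781340-16798274, plus strand), a main glutamine carrier of dividing cells, was at 44.1 and 43.4 CPM in MEF, 62 and 62 at day 3, 76.5 and 78.1 at day 6, 63.7 and 65.3 at day 9, and 123 and 125 in ESC. Its gene total rose from MEF to ESC by 1.51 ± 0.04 (log2, SE; edgeR adjusted p = 6.9e-14). In ESC, however, 53.4% and 55.8% of its reads were assigned to Slc1a5-002, a transcript annotated as a retained intron, against 0% to 11.2% in the other 8 libraries. All other transcripts of the gene summed to 44.1 and 40.9 CPM in MEF, 74 and 72.4 at day 6 and 57.4 and 55.4 in ESC. Without the reads of Slc1a5-002, an alternative chosen after seeing the data, the change from MEF to ESC was 0.41 (edgeR adjusted p = 9.6e-06) and not past 2-fold. Slc1a4 (ASCT1), the related alanine and serine carrier, fell at day 3 from 139 and 138 CPM to 47.5 and 49.5 CPM and stood at 40 and 40.8 CPM in ESC.

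Slc38a1 and Slc38a2 (SNAT1 and SNAT2), sodium-coupled carriers of glutamine and alanine, moved apart. Slc38a2, which amino acid starvation is known to induce, was at 372 and 375 CPM in MEF, 165 and 169 at day 3, 144 and 142 at day 9 and 242 and 237 in ESC. Its fall at day 3 was -1.16 ± 0.03 (log2, SE; edgeR adjusted p = 4.2e-13), and -0.96 with library-size scaling, which loses the call. Slc38a1 was at 118 and 113 CPM in MEF, 154 and 163 at day 3, 248 and 246 at day 6, 225 and 222 at day 9 and 119.8 and 119 in ESC. Day 6 was above both ends of the series, by 1.10 ± 0.04 over MEF and 1.04 ± 0.04 over ESC (log2, SE; edgeR adjusted p = 1.6e-12 and 3.8e-12). Per length, Slc38a1 stood at 0.2 and 0.19 of Slc38a2 in MEF, 1.02 and 1.06 times it at day 6 and 0.314 and 0.318 of it in ESC.

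Slc38a4, a placental and liver carrier from an imprinted gene, had a trough as well, at day 6 and day 9. It was at 128 and 130.1 CPM in MEF, 87.3 and 92.4 at day 3, 21.4 and 22.6 at day 6, 20.3 and 19.5 at day 9, and 151 and 152 in ESC. The low libraries are those of the sorted cells, and the fall from day 3 to day 6 was -2.03 ± 0.05 (log2, SE; edgeR adjusted p = 1.1e-13). The rise from day 9 to ESC was 2.93 ± 0.05 (edgeR adjusted p = 9.4e-16). Slc38a5 (SNAT5) was seen almost only after day 3: at or below 0.135 CPM in the MEF and day 3 libraries, 13.1 and 13.3 CPM at day 6, 14.3 and 14.4 at day 9 and 1.71 and 1.79 in ESC. Slc38a6 was at 48.7 and 47.6 CPM at day 6, 107 and 108 at day 9 and 25.9 and 22.9 in ESC. Its day 9 rise of 1.16 ± 0.05 (edgeR adjusted p = 6.9e-10) lay mostly on transcript Slc38a6-005, with 85.4% and 81.8% of the reads there, and was 0.72 without it, which is under 2-fold. Among the proton-coupled Slc36 genes, the lysosomal carrier Slc36a1 was at 30.3 CPM in both MEF libraries and 10.4 and 10.5 at day 9, with no single step past 2-fold. Slc36a4 fell over the series from 42.1 CPM in both MEF libraries to 7.69 and 7.72 in ESC, -2.45 ± 0.09 (log2, SE; edgeR adjusted p = 6.7e-12), again without a single step past 2-fold.

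The Slc1 glutamate carriers and Slc6 genes include several that were far lower in the induced cells than in MEF. Slc1a3 (GLAST), a glutamate carrier of astrocytes, was at 23.5 and 22.8 CPM in MEF, 0.781 and 0.65 at day 3, 1.59 and 2.09 at day 6, 4.63 and 4.45 at day 9 and 8.19 and 6.89 in ESC. It was lowest at day 3, 32.1-fold below MEF in CPM (edgeR adjusted p = 2.0e-12), and each later group is above the one before. Slc1a6 was at 11 and 9.94 CPM in MEF, at or below 0.386 CPM at day 6 and day 9 and at 3.65 and 3.26 CPM in ESC. Slc6a9 (GLYT1), a glycine carrier, was at 54 and 53.7 CPM in MEF, 2.8 and 2.99 at day 3, 2.48 and 2.42 at day 9 and 9.43 and 10.2 in ESC. The MEF libraries of Slc6a9 stand apart, with a fall at day 3 of -4.22 ± 0.09 (edgeR adjusted p = 1.5e-14). Slc6a17, a vesicular neutral amino acid carrier of neurons, was at 45.7 and 45.2 CPM in MEF, 4.55 and 5.14 at day 3, 23.8 and 24.2 at day 6, 12.1 and 11.2 at day 9 and 2.3 and 2.67 in ESC. It fell, rose and fell again, the last at -1.04 ± 0.07 by day 9 (edgeR adjusted p = 5.2e-08), which was -0.99 and not called without day 9 replicate 2. The neuron markers other than Tubb3 stayed at or below 2.53 CPM in every group mean, and Tubb3 was at 95.4 CPM in MEF, 0.467 CPM at day 3 and 91.3 CPM in ESC; their part in these levels was not tested. In ESC the levels of Slc1a6, Slc1a3 and Slc6a9 were 32.9%, 32.5% and 18.2% of MEF, above the fibroblast markers, and that of Slc6a17 was 5.46%, within their range. For all of these the share from feeder cells was not tested.

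The most abundant Slc6 genes changed under 2-fold at each step. The taurine carrier Slc6a6 was at 224 and 223 CPM in MEF, 417 and 438 at day 3, 295 and 298 at day 9 and 172 and 170.5 in ESC, and the creatine carrier Slc6a8 was at 105 and 103 CPM in MEF, 60 and 60.6 at day 6 and 82.8 in both ESC libraries.

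The order by TPM depends on how reads were assigned to transcripts of different length, since TPM were summed over all transcripts of a gene. By this measure the leading transporters of MEF were Slc7a5 at 168, Slc16a3 at 138, Slc2a1 at 75.3 and Slc3a2 at 63.9, with no overlap between the libraries of one and the next. At day 3 they were Slc7a3 at 66, Slc43a3 at 63, Slc2a3 at 56 and Slc3a2 at 49.8, again without overlap between neighbours. Slc7a3 and Slc2a3 led at day 6, at 317 and 173 TPM, and at day 9, at 336 and 241. In ESC the order was Slc2a3 at 418, Slc7a3 at 116, Slc7a5 at 104, Slc2a1 at 93 and Slc1a5 at 67.8, the last with its retained-intron transcript included. At day 6 Slc7a5 and Slc43a3, at 36.3 and 34.9 TPM, could not be separated, nor could Slc2a1 and Slc7a5 at day 9, at 32 and 30.9 TPM.

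Some transporters lay outside both end points in the intermediates. At day 3, 6 members were higher and 14 lower than both MEF and ESC, against 6.36% and 6.65% of all tested genes; at day 6 the counts were 9 and 15, against 7.49% and 8.74%, and at day 9 they were 8 and 13, against 8.17% and 8.48%. Those lower than both at all of day 3, 6 and 9 included Slc2a1, Slc16a3, Slc7a5, Slc7a7 and Slc6a9, and those higher at all of them Slc7a11, Slc2a12, Slc43a2 and Slc16a9. Of the 25 members that fell at day 3, 13, or 52%, were among those higher in ESC than at day 9, and these make up 65% of the 20 members in the latter set. Over all tested genes the shares were 51.7% and 40.3%. Of the 12 that rose at day 3, 6, or 50%, were lower in ESC than at day 9, against 43.1% of all genes that rose. The first and last steps share no library, but the ESC were grown on feeder cells. Of the 10 fibroblast markers, 10 fell at day 3 and 9 were higher in ESC than at day 9. The part of feeder cells in this pattern of the members was not tested.

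**Figure D5:**
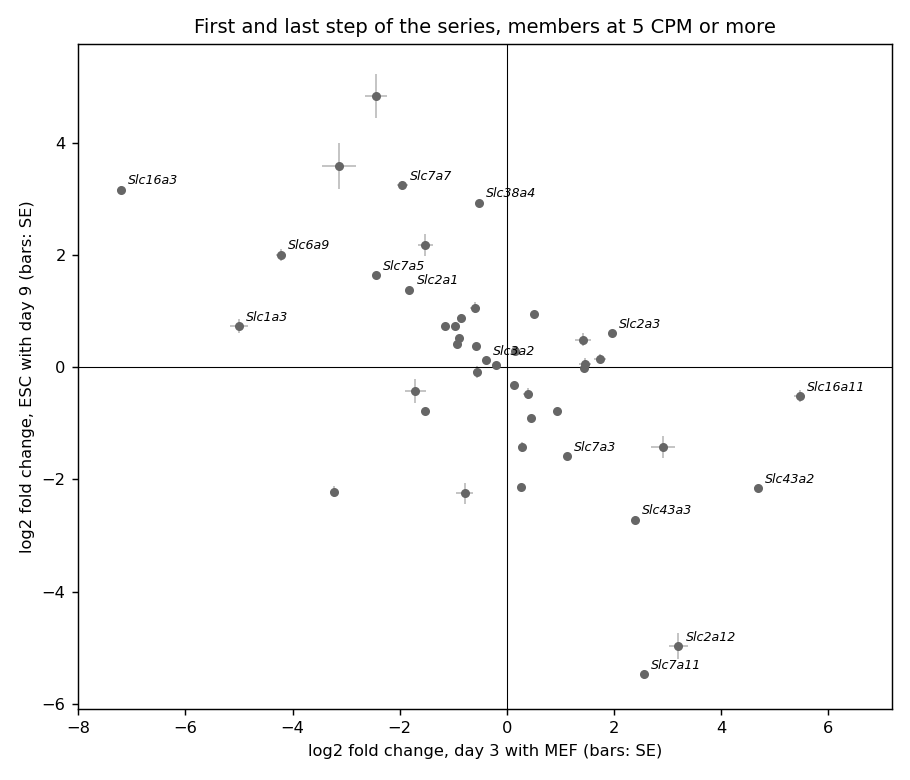
Log2 fold change at day 3 with MEF (horizontal) and ESC with day 9 (vertical), with SE bars, for 44 members that reached 5 CPM in a group and 1 CPM in the day 3 or MEF mean. Slc16a3, Slc6a9, Slc7a5 and Slc2a1 lie at the upper left, lower at day 3 and higher in ESC, and Slc7a11, Slc2a12, Slc43a2 and Slc43a3 at the lower right.

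Genes that work with these carriers were read from a list of 22, all of them tested. The list was chosen for the roles of its genes. At day 3, 2 rose and 11 fell, where 14.6% and 14.5% of all tested genes did. By day 6, 2 rose (9.26% of all tested genes), by day 9, 1 rose (5.18%), and from day 9 to ESC, 7 rose (18.6%). Between MEF and ESC, 7 were higher and 8 lower in ESC (25.5% and 20.6%). Ldha, the lactate-forming subunit of lactate dehydrogenase, was at 2251 and 2299 CPM in MEF, 437 and 425 at day 3, 520.3 and 531 at day 9 and 904 and 932 in ESC, a fall of -2.40 at day 3 (log2; edgeR adjusted p = 1.4e-16). Bsg (basigin), the chaperone of the lactate carriers, fell at day 3 by -1.59 (edgeR adjusted p = 4.2e-14), from 787 and 803 CPM to 270.2 and 259 CPM, while Emb (embigin), another chaperone of MCT1, was at 31.7 and 36.7 CPM in MEF, 23.6 and 22.9 at day 3, 41.4 and 39.6 at day 9 and 95 and 90.2 in ESC. Hif1a fell at day 3 by -1.52 (edgeR adjusted p = 1.5e-13), from 269.9 and 284 CPM to 94.2 and 99.5 CPM, and was at 119 and 116 CPM in ESC. Its part in the levels of Slc2a1 and Slc16a3 was not tested. Txnip, which restrains glucose uptake, rose at day 3 from 179 and 186 CPM to 573 and 558 CPM.

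Of the amino acid response genes on the list, Atf4, Ddit3, Trib3, Chac1 and Asns fell at day 3, while Sesn2 was not called. Atf4, the factor of that response, was at 402 and 402 CPM in MEF, 143 and 137 at day 3, 180.3 and 185 at day 9 and 253 and 261 in ESC, a fall of -1.52 at day 3 (log2; edgeR adjusted p = 4.0e-14). Its textbook targets Trib3 and Chac1 fell by -7.23 and -4.72 (edgeR adjusted p = 3.4e-17 and 1.5e-13), Trib3 from 137 and 135 CPM to 0.861 and 0.946 CPM and Chac1 from 38.6 and 39.1 CPM to 1.32 and 1.63 CPM. Asns, which makes asparagine, fell from 291 and 286 CPM to 62.9 and 63.2 CPM and was at 348 and 356 CPM in ESC. Sesn2, another gene known to respond to Atf4, was at 107 CPM in both MEF libraries, 114 and 110.0 at day 3, 141 and 146 at day 6, 156 and 153 at day 9 and 82.1 and 83 in ESC, under 2-fold in all 5 comparisons. At day 3 Atf4, Trib3, Chac1, Asns and Slc7a5 were below their MEF levels, Slc7a11 was above its own, and Sesn2 lay just above its own. The part of Atf4 in the Slc7a5 and Slc7a11 levels was not tested. On the glutathione side, Gclm, the modifier subunit of the enzyme that joins glutamate and cysteine, rose at day 3 from 28.9 and 30.8 CPM to 60.7 and 63.3 CPM, by 1.05 (edgeR adjusted p = 1.1e-10), and was at 84.5 and 80.2 CPM at day 6 and 67.9 and 68.1 CPM in ESC. Gclc, the catalytic subunit of that enzyme, was at 32.3 and 33.2 CPM in MEF, 37.9 and 40.9 at day 3 and 55.5 and 55.2 in ESC, under 2-fold in all 5 comparisons. Nfe2l2 (Nrf2), a factor that drives both Gclm and Slc7a11 in other settings, was at 97.7 and 101 CPM in MEF, 112 and 106 at day 3 and 88.8 and 87.2 at day 6, under 2-fold in all 5 comparisons.

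Of the 72 tested members, 56 were called in at least 1 of the 5 comparisons and 16 in none. The same count was not made over all tested genes, so these numbers describe the members and do not set them apart from other genes. Among the latter, those at 10 CPM or more in a group were Slc3a2, Slc6a6, Slc6a8, Slc7a1, Slc7a6, Slc7a6os, Slc36a1, Slc38a1, Slc38a7, Slc38a9 and Slc38a10. Some of these were called where an intermediate was set against an end point: Slc38a1 as given above, Slc36a1 and Slc38a10 at day 6 and day 9 with MEF, Slc38a7 at day 6 with MEF, Slc7a1 at day 9 with MEF and Slc6a6 at day 3 with ESC. The log2 change at day 6 with MEF was -1.59 for Slc36a1 and -1.39 for Slc38a10, and at day 9 with MEF it was -1.24 for Slc7a1.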

How the data were processed

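RNA sequencing of 10 mouse libraries (TruSeq stranded mRNA, single 50 nt reads) was read from the deposited transcript tables. The deposited estimated counts and TPM per transcript were made by the authors with Salmon 0.8.2 for mm10, per the submitters' processing notes and the file headers. Estimated counts were summed over the transcripts of each gene and rounded, and the deposited TPM were summed without change. Genes were filtered with edgeR's filterByExpr (minimum count 10, minimum total 15), scaled by TMM and tested with edgeR's quasi-likelihood test on all 5 groups together, with Benjamini-Hochberg adjustment over the 20165 genes tested. Total estimated reads were 29585876 to 38275024 per library, and the common biological coefficient of variation was 3.75%. With 2 libraries against 2, an exact permutation test cannot go below p = 0.333, so calls rest on the fit across genes.

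Genes are named from a fixed panel of main carriers, plus the 3 members that rose and the 3 that fell most in each comparison, and the 3 farthest above and below both MEF and ESC, at 5 CPM or more. Slc16a13, a neighbour of Slc16a11, was named after its values were seen. Some members are not reported here by name or drawn, but all are in the counts. The members and lists were chosen with earlier results of these data known. Feature positions come from GENCODE M21, which matched all 88 members, and promoters from RefSeq on GRCm38.p6.

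Replicates of a group differed by more than counting noise (chi-square per degree of freedom 2.82 to 5.18). Same-numbered libraries did not deviate together (mean r = -0.0083). On simulated counts for day 3 with MEF (20165 genes, 200 changed), edgeR called 90% of genes changed by 2 on the log2 scale and 95% of those changed by 3, with 2 unchanged genes called; DESeq2 called 88% and 87% with 0, and limma with a pseudocount of 1 TPM called 63% and 68% with 19. Alternatives were DESeq2, filters, library-size scaling, an offset for transcript length, a replicate block, limma with a pseudocount of 1 or 0.1 TPM on the log2 scale and leaving out each library. Versions were R 4.3.3, edgeR 4.0.16, limma 3.58.1, DESeq2 1.42.0, Python 3.11.15, pandas 2.3.3, numpy 2.4.6 and matplotlib 3.10.9.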

Additional observations from a re-analysis of the deposited data

How the results depend on the processing

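Of 95 called pairs of a named gene and a comparison, no direction reversed in any setting, and 38 lost their call in at least 1: DESeq2 lost 2, library-size scaling 2, the length offset 3, the stricter filter 1 of 80, limma on log2(TPM + 1) 36, limma on log2(TPM + 0.1) 10, and leaving out a library 3 of 950. The causes were not tested. Counts of members are given as higher and lower. With no fold minimum they were 20 and 38 at day 3, 30 and 19 at day 6, 12 and 20 at day 9, 33 higher for ESC with day 9 and 34 lower for ESC with MEF; against both MEF and ESC, 14 and 23 at day 3 and 23 lower at day 9. The stricter filter, which tests fewer genes, gave 13 lower at day 3, 7 and 5 at day 6, 4 higher at day 9, 9 and 9 for ESC with day 9, 12 and 12 for ESC with MEF, and 6, 9 and 8 below both ends at day 3, 6 and 9. With a pseudocount of 1 TPM, limma gave 11 lower at day 3, 5 and 3 at day 6, 0 higher at day 9, 7 and 7 for ESC with day 9, 9 and 8 for ESC with MEF, 6, 5 and 6 below both ends, and 5 above both at day 9. For that 0, limma had 9 members higher at an unadjusted p under 0.05 with no fold minimum and 0 with it, and edgeR had 17 and 8. With a pseudocount of 0.1 TPM, it gave 9 and 5 at day 6, 2 higher at day 9 and 9 below both ends at day 3. The length offset gave 5 lower at day 9. In windows of 100 bases, TGATGNAA occurred in 1 member window, ACGTG in 11 and GGGNGTG in 10.

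With the replicate number as a block, no named call was lost, and the counts were those of the unblocked fit except 13 higher at day 6, and 14 below both ends at day 6 and at day 9; the pairing check gave a correlation of -0.0505 to 0.0362, so the numbers do not pair the libraries. Leaving out each library gave 12 to 13 higher and 22 to 25 lower at day 3, 13 to 15 and 9 at day 6, 5 to 7 and 2 to 3 at day 9, 18 to 20 and 13 to 14 for ESC with day 9, and 21 to 22 in both directions for ESC with MEF. Below both ends it gave 13 to 14, 13 to 16 and 12 to 14 at day 3, 6 and 9. Genes under a few reads per library, such as Slc38a5 before day 6, are limited by depth.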
